A study of Homo sapiens with 26 samples.

Results

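The 10 genes described here are interferon-induced antiviral effectors, namely IFIT1, IFIT2, IFIT3 and IFIT5, IFITM1, IFITM2 and IFITM3, and ISG15, IFI6 and MX1. They were chosen by gene symbol from the 26485 symbols of each table, and all 10 were listed in all 5 tables. mRNA-seq had been performed on 26 libraries of 3 established human esophageal squamous cell carcinoma (ESCC) lines, KYSE180, TE6 and KYSE150, after a change in the bromodomain gene BRDT or in TP63, the gene of the squamous transcription factor p63. Small interfering RNA (siRNA) against BRDT (siBRDT) or TP63 (siTP63) or a control siRNA (siCont) was delivered by lipid transfection, and RNA was isolated after 48 h. KYSE180 siBRDT was compared with its own siCont (3 libraries each), and KYSE180 siTP63 with a separate siCont (2 each). TE6 siBRDT and siTP63 were set against the same 2 siCont libraries (2 each), and KYSE150 siTP63 against siCont (2 each). KYSE150 with BRDT overexpression (BRDT-OE) from an electroporated plasmid was compared with control cells (cont, 3 each). The study gives an empty vector as the control for overexpression, and the labels do not name it. All groups were transiently transfected cultures of these lines, and KYSE150 was grown in medium with less serum than the other lines. The labels do not say whether replicates came from separate cultures, so the p-values measure the spread between these libraries, which may be technical.

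Type I and type III interferons act through surface receptors, the kinases JAK1 and TYK2 and transcription factors such as IRF9, which bind the interferon-stimulated response element in the promoters of effector genes. IFIT proteins bind foreign RNA and block its translation, while IFITM proteins sit in membranes and hinder the entry of viruses. ISG15 is a ubiquitin-like protein that is joined to other proteins, MX1 is a GTPase that traps viral nucleoproteins, and IFI6 is a small membrane protein that interferes with viral replication and with cell death. The pathway is used by epithelial cells as well as by immune cells.

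The IFIT genes lie side by side on chromosome 10 of hg38 (GENCODE release 44, positions 89283694 to 89421605, plus strand, in the order IFIT2, IFIT3, IFIT1, IFIT5). The IFITM genes lie together on chromosome 11 (303655 to 329475), with IFITM2 and IFITM1 on the plus strand and IFITM3 on the minus strand. ISG15 (chromosome 1, 1001138 to 1014540, plus strand), IFI6 (chromosome 1, 27666064 to 27672212, minus strand) and MX1 (chromosome 21, 41420020 to 41470071, plus strand) stand apart, and all 10 genes are annotated as protein coding. RefSeq promoters (GRCh38.p14, the assembly of hg38) were found for 8 of the 10 genes, but not for IFIT2 and IFITM2. In the 250 bases before the start, each of the 8 held at least 1 match, on either strand, to GAAA followed by any 2 bases and a second GAAA, the core of the interferon-stimulated response element, and MX1 held it at 1 of its 3 listed starts. The motif was found in 3.02% of all 35116 promoters (1061 promoters) and, counted by gene, in 3.71% of 27305 genes (1014 genes). It was not particular to these members. In the lists used below it was found in 14 of 24 other effectors (58.3%) and 4 of 9 interferon ligands (44.4%). It was also found in 2 of 8 OAS genes and RNA sensors, 1 of 5 ISG15 conjugation genes and 1 of 12 signalling genes. A match describes the letters in the window and says nothing about binding.

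The stretches around the matches are shown for 7 genes because the motif is the sequence feature that the rule for choosing the genes did not use. They are written on the strand of the gene with 15 bases on either side (fewer after the last match of IFIT5, where the stretch ends at the start), and the matches are in capitals. IFI6 held 3 matches, ISG15 held 2 that overlap, and IFIT5, the IFIT gene called in the fewest comparisons, held 2 like its neighbour IFIT1.
IFIT1 (chr10:89392492-89392544, plus strand): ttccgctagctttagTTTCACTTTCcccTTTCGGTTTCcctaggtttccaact
IFIT5 (chr10:89414508-89414567, plus strand): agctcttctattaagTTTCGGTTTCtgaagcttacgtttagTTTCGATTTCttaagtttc
IFITM1 (chr11:313985-314024, plus strand): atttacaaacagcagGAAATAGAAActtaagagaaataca
IFITM3 (chr11:320871-320927, minus strand): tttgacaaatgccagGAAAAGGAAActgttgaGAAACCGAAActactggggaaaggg
ISG15 (chr1:1013369-1013414, plus strand): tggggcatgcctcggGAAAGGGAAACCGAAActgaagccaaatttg
IFI6 (chr1:27672261-27672363, minus strand): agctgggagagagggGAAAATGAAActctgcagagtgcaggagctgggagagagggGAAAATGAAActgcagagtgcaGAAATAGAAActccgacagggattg
MX1 (chr21:41431839-41431878, plus strand): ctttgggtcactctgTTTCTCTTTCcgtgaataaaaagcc

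The siRNAs that define the knockdown groups are also given, as the study lists them, in lower case and from 5′ to 3′. Which of them was used for each library is not given in the sources used here.
Non-targeting siRNA number 5: ugguuuacaugucgacuaa
BRDT siRNA number 2: caaaucaacuucaguaucu
BRDT siRNA number 3: gaaaauggauaaccaagaa
BRDT siRNA number 4: guagagagaacacuaauga
BRDT siRNA number 18: gagauaaacuugggcgagu
TP63 siRNA number 5: caucaugucuggacuauuu
TP63 siRNA number 8: cgacagucuuguacaauuu

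The libraries held 7582089 to 19372441 reads, and a gene with 0 reads in a library was compatible with up to 3 reads, or 0.155 to 0.396 RPM (reads per 1000000 reads counted in genes), by counting error only. The targeted genes moved as labelled, and TP63 was lower with siBRDT as well. BRDT was 1017, 1043 and 1136 normalised counts in KYSE180 siCont and 132, 147 and 198 in siBRDT, and it was 241 and 242 in TE6 siCont and 55.0 and 46.6 in siBRDT. BRDT-OE took it from 6.58 to 16.0 up to 15872 to 17542. TP63 was lower in every siTP63 library than in its controls, with log2 fold changes of -1.70 in KYSE180, -4.45 in TE6 and -2.34 in KYSE150. With siBRDT, TP63 also fell, from 9399.6–10366 to 5924–7223 normalised counts in KYSE180 (log2 fold change -0.58, adjusted p = 8.8e-06 by limma) and from 2596–2785 to 1147–1282 in TE6 (-1.15, adjusted p = 2e-05), so the siBRDT groups are not at control levels of TP63. Squamous markers were present in all lines (7 or 8 of 8 at 1 RPM or more). Of 8 leukocyte markers only 1 or 2 reached 1 RPM (summed level 6.46 to 111 RPM, mostly CD68, which is not restricted to leukocytes), the pan-leukocyte gene PTPRC stayed at or under 0.357 RPM, and the 3 plasmacytoid dendritic cell markers summed to at most 0.181 RPM. The summed squamous level was lower in all 5 knockdowns, whether or not the effector genes were called. It went from 8968–9595 to 5491–5655 RPM in KYSE180 siBRDT, from 8303–8551 to 5636–5680 in KYSE180 siTP63, from 7603–7776 to 4411–4654 in TE6 siBRDT and 1726–1876 in TE6 siTP63, and from 1007–1203 to 507–689 in KYSE150 siTP63, while it was 1016–1241 in KYSE150 cont and 1188–1279 in BRDT-OE. Endothelial markers (mainly VWF) went from 1.43–2.09 to 11.3–12.1 RPM and fibroblast markers from 36.1–39.7 to 68.7–80.0 RPM in KYSE180 siTP63. In KYSE150 siTP63 the endothelial sum went from 0.796–1.73 to 5.52–11.39 RPM. There the gene was another, CDH5, which reached 10.77 RPM, while VWF stayed at or under 0.605 RPM. These marker levels are in RPM and do not use the size factors behind the normalised counts, so the shifts can differ in size on that scale. The part of these shifts in the results was not tested.

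In order to see how active the effector genes were before treatment, their levels in control libraries were expressed per length (RPKM, the RPM divided by the length of the Ensembl canonical transcript in kilobases). IFITM3 ranked first in every control group, with 527 RPKM (500.4 to 542) in KYSE180 siCont of the BRDT experiment, 339 (270.0 to 407) in KYSE180 siCont of the TP63 experiment, 272 (271 to 273) in TE6 siCont, 483 (363 to 604) in KYSE150 siCont and 650.4 (524 to 718) in KYSE150 cont. In the KYSE180 siCont libraries of the TP63 experiment its range overlapped that of ISG15, which came second there with 257 RPKM (215 to 298). ISG15 also ranked second in both KYSE150 control groups, with 130 (118 to 141) and 127 RPKM (100.4 to 141). The genes that followed were not the same in each line. IFI6 was at 48.1 RPKM (41.7 to 54.5) in TE6 siCont and at 1.95 (1.76 to 2.13) in KYSE150 siCont, and IFITM1 was at 111 (107 to 115) and 0.606 (0.259 to 0.953). MX1 ranked last in TE6 and in both KYSE150 groups, at 1.10, 0.211 and 0.536 RPKM, but at ranks 5 and 6 in the 2 KYSE180 control groups, at 49.8 and 6.38. The 4 IFIT genes lay between 1.22 and 3.03 RPKM in KYSE180 siCont of the TP63 experiment, between 2.43 and 7.54 in that of the BRDT experiment, between 1.08 and 4.001 in KYSE150 siCont and between 5.57 and 7.59 in TE6 siCont, where the ranges of IFIT2 and IFIT1 overlapped. They were higher in KYSE150 cont, where IFIT2 (21.6) and IFIT1 (19.3) held ranks 3 and 4 and IFIT5 was at 6.77. These levels come from separate experiments and were not tested between lines.

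**Figure D1:**
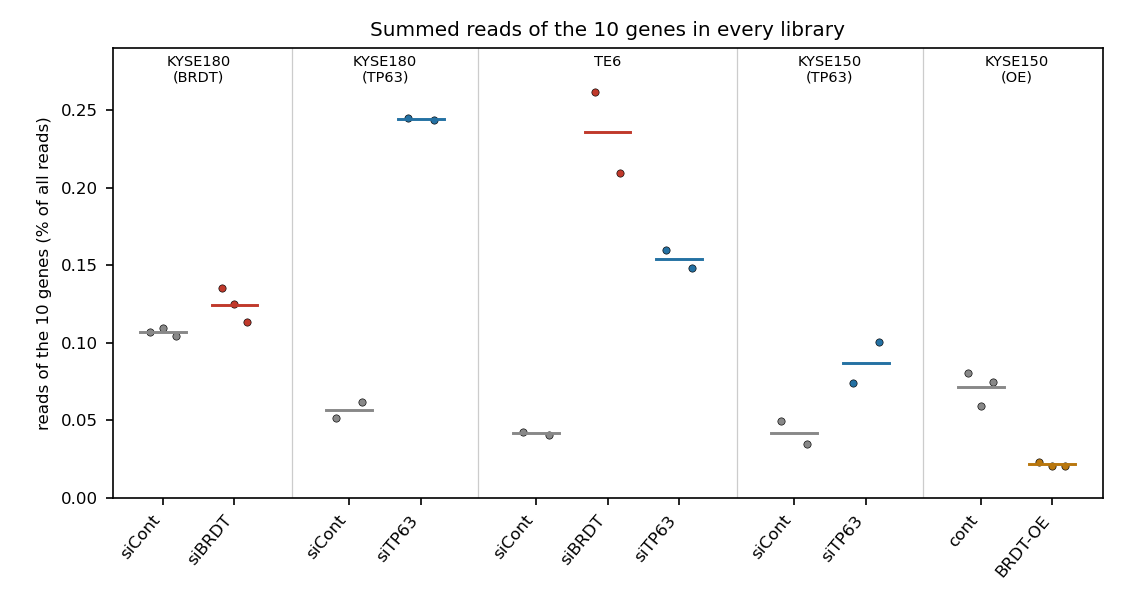
Reads of the 10 genes together as a percentage of all reads in each library, without the size factors behind the normalised counts. Each point is 1 library, each line a group mean, grey is control, red siBRDT, blue siTP63 and ochre BRDT-OE. KYSE180 siTP63 and TE6 siBRDT libraries reached 0.210% to 0.261%, and BRDT-OE libraries were lowest at 0.0207% to 0.0233%.

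Most of the 10 genes were higher after knockdown of TP63 in KYSE180 and of either gene in TE6, and lower after BRDT overexpression in KYSE150. Their summed reads went from 0.0565% ± 0.0072 to 0.244% ± 0.0013 of all reads in KYSE180 siTP63 (SD, n = 2 each), and from 0.0418% ± 0.0015 to 0.236% ± 0.037 in TE6 siBRDT and 0.154% ± 0.0083 in TE6 siTP63 (n = 2 each). In KYSE150 they were 0.0421% ± 0.011 in siCont and 0.0873% ± 0.019 in siTP63 (n = 2 each), and 0.0714% ± 0.011 in cont and 0.0216% ± 0.0015 in BRDT-OE (n = 3 each). KYSE180 siBRDT showed the smallest shift, 0.107% ± 0.0028 against 0.125% ± 0.011 (n = 3 each). As shares of all reads, treated and control libraries did not overlap in any of the 6 comparisons, as the plot by library shows. The sums were not made on normalised counts. Abundant genes weigh most in these sums. In KYSE150 siCont, IFITM3 alone held 369 of 496 and 222 of 346 RPM, and in siTP63 it held 556 of 739 and 716 of 1007 RPM. A shift of the sum is therefore not a shift of all 10 genes. These sums are descriptions with no test, and in bulk RNA fewer cells of a kind and less RNA per cell cannot be told apart.

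Single genes were tested with limma on log2(value + 1) over all genes with a mean of at least 10, and calls needed both a Benjamini-Hochberg adjusted p under 0.05 and a change of 0.5 or more on the log2 scale in either direction. All adjusted p-values below are from that fit. In KYSE180 siTP63 all 10 genes were called up, where 23.6% of all 13924 genes tested were called up and 25.7% down, and the median log2 fold change of the 10 was 2.06 against 0.00 over all genes. TE6 siBRDT called 8 of 10 up and none down (15.6% of 13333 genes up, 18.1% down), with a median of 1.97 against -0.04. TE6 siTP63 called 6 of 10 up and none down (18.3% up, 20.6% down), with a median of 1.07 against -0.01. KYSE180 siBRDT called only 2 of 10 up and none down (14.5% of 13589 genes up, 15.8% down), near the background, with a median of 0.11 against -0.01. Without the fold limit 6 of 10 were called there (5 up and 1 down), again near the 58.4% of all genes (28.6% up and 29.8% down). BRDT-OE called 9 of 10 down and none up (16% of 12765 genes down, 10.5% up), with a median of -1.70 against 0.02. Among these, IFITM1 and MX1 passed the minimum only through their cont levels, so their calls are no support for that count. In KYSE150 siTP63 the test called 0% of 12335 genes and none of the 9 members tested, while 3 of the 9 and 17.8% of all genes (2194 genes) had an unadjusted p under 0.05. On the recovered reads edgeR also called 0 genes there, and DESeq2 called 202 up and 259 down, none of them a member.

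**Figure D2:**
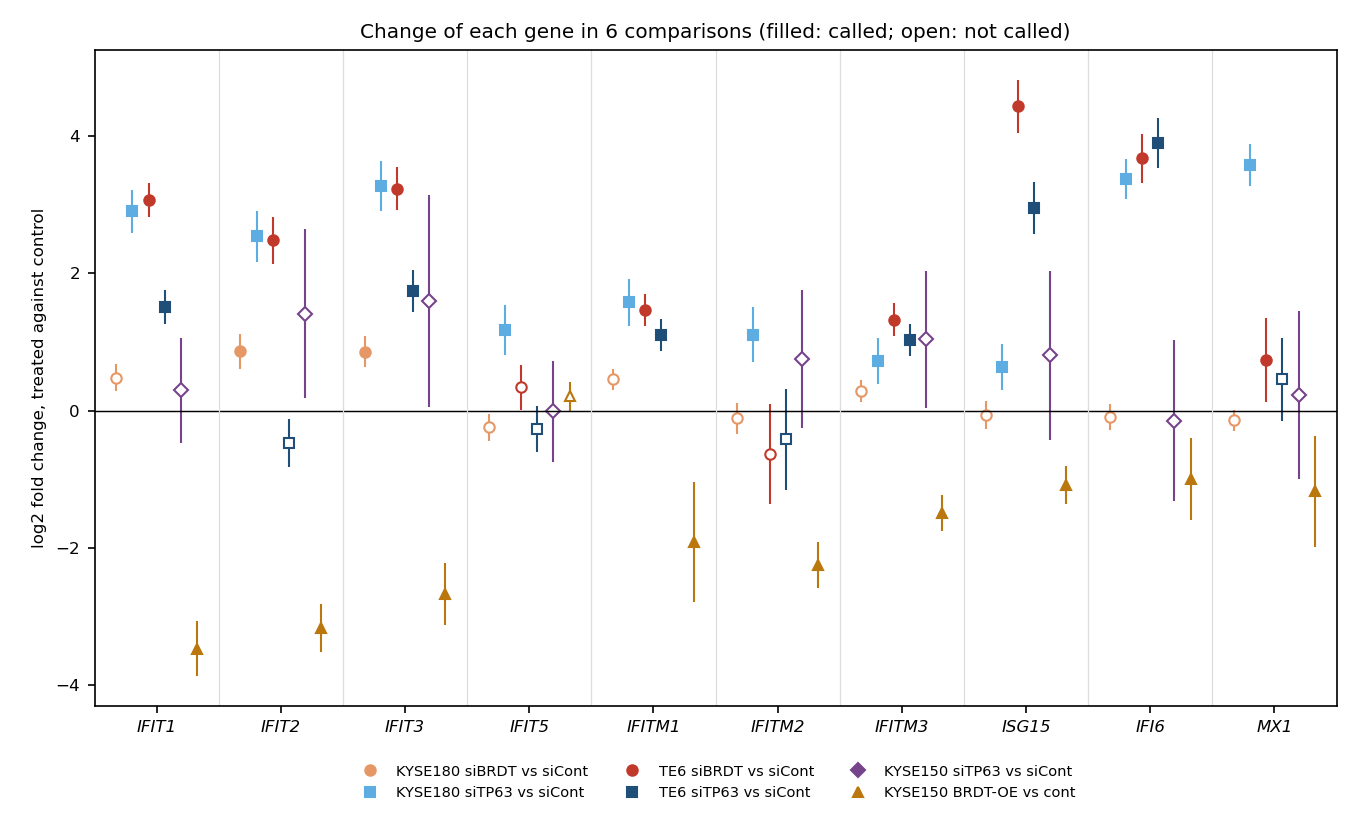
Log2 fold change of each gene in the 6 comparisons, with bars for the 95% interval of limma. Filled symbols were called and open ones were not, and open purple diamonds are KYSE150 siTP63, where IFITM1 was not tested. All ochre triangles (BRDT-OE) lie below 0 except IFIT5, and all light blue squares (KYSE180 siTP63) lie above 0.

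IFIT1, IFIT2 and IFIT3, whose proteins act in 1 complex on foreign RNA, all rose in KYSE180 siTP63 and TE6 siBRDT and all fell in BRDT-OE, and they parted in TE6 siTP63, where IFIT2 did not rise. In KYSE180, IFIT1 was 344, 378 and 359 in siCont and 559, 442 and 509 in siBRDT. In the TP63 experiment of the same line it was 197 and 244 in siCont and 1563 and 1736 in siTP63. IFIT1 in TE6 was 358 and 356 in siCont, 2819 and 3195 in siBRDT and 937 and 1108 in siTP63. Every treated library therefore stood above every control library of its table in these 2 lines. In KYSE150 the siRNA groups overlapped, with 107 and 152 in siCont and 186 and 132 in siTP63, whereas IFIT1 dropped from 1419, 1112 and 1192 in cont to 154, 92.2 and 95.6 in BRDT-OE. The log2 fold changes of IFIT1 were 2.90 (SE 0.15, adjusted p = 8e-14) in KYSE180 siTP63, 3.07 (SE 0.12, adjusted p = 1.5e-08) in TE6 siBRDT, 1.51 (SE 0.12, adjusted p = 8.7e-07) in TE6 siTP63 and -3.47 (SE 0.18, adjusted p = 1.3e-06) in BRDT-OE. In KYSE180 siBRDT it was 0.48 (SE 0.092, adjusted p = 0.00042), which passed the p threshold but not the fold limit.

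IFIT3, a partner that stabilises IFIT1 on RNA, was the member with the largest relative change among the 4 IFIT genes in KYSE180 siTP63 and TE6 siBRDT. It went from 62.9 and 76.0 to 603 and 759 in KYSE180 siTP63, with no overlap. It went from 182 and 189 to 1578 and 1945 in TE6 siBRDT, a ratio of means of 9.51, and to 551 and 703 in TE6 siTP63. In KYSE180 siBRDT the rise was smaller, from 132, 145 and 154 to 251, 243 and 292, but the groups did not overlap. The corresponding log2 fold changes were 3.27 (SE 0.18, adjusted p = 1.7e-13), 3.23 (SE 0.14, adjusted p = 4.1e-08), 1.74 (SE 0.14, adjusted p = 1.4e-06) and 0.86 (SE 0.11, adjusted p = 7.8e-06). In BRDT-OE it fell from 548, 359 and 411 to 73.9, 82.0 and 49.2 (log2 fold change -2.68, SE 0.20, adjusted p = 7.5e-06).

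IFIT2, which has been tied to antiviral defence and to cell death, separated the 2 knockdowns of TE6. It was 280.4 and 301 in siCont, 1518 and 1733 in siBRDT and 173 and 250.1 in siTP63, so that siBRDT libraries lay above and siTP63 libraries below the controls. The rise under siBRDT was called (log2 fold change 2.48, SE 0.16, adjusted p = 8.1e-07), while the value under siTP63 was -0.48 (SE 0.16, adjusted p = 0.025), just under the fold limit. Without siTP63 replicate 2 it was called down (-0.74, adjusted p = 0.0083), and leaving out each library gave -0.74 to -0.21. In KYSE180, siTP63 libraries were at 407 and 416 against 64.5 and 76.0 (log2 fold change 2.54, SE 0.18, adjusted p = 2.1e-11). siBRDT libraries of KYSE180 were at 164, 155 and 185 against 93.1, 97.5 and 84.3 (0.86, SE 0.12, adjusted p = 2.2e-05). In KYSE150, BRDT-OE lowered it from 1408, 901 and 970.2 to 133, 117 and 107 (-3.17, SE 0.16, adjusted p = 1.1e-06).

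IFIT5, which also binds single-stranded RNA but acts apart from the IFIT1 complex, moved little. It was called only in KYSE180 siTP63, where it went from 154 and 128 to 297 and 342 (log2 fold change 1.17, SE 0.17, adjusted p = 2.9e-06). Its values were 228 and 278 in TE6 siCont, 312 and 326 in siBRDT and 192 and 226 in siTP63, and neither comparison with siCont passed (adjusted p = 0.085 and 0.16). It was also the only member with a positive value in BRDT-OE, 517, 430.5 and 464 against 409, 430.1 and 381 (0.21, SE 0.096, adjusted p = 0.095). In KYSE180 siBRDT the value was -0.25 (SE 0.091, adjusted p = 0.032), again below the fold limit. LIPA, a lysosomal lipase gene on the other strand, overlaps IFIT1, IFIT2 and IFIT3 but not IFIT5, and the library kit does not mark strand.

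**Figure D3:**
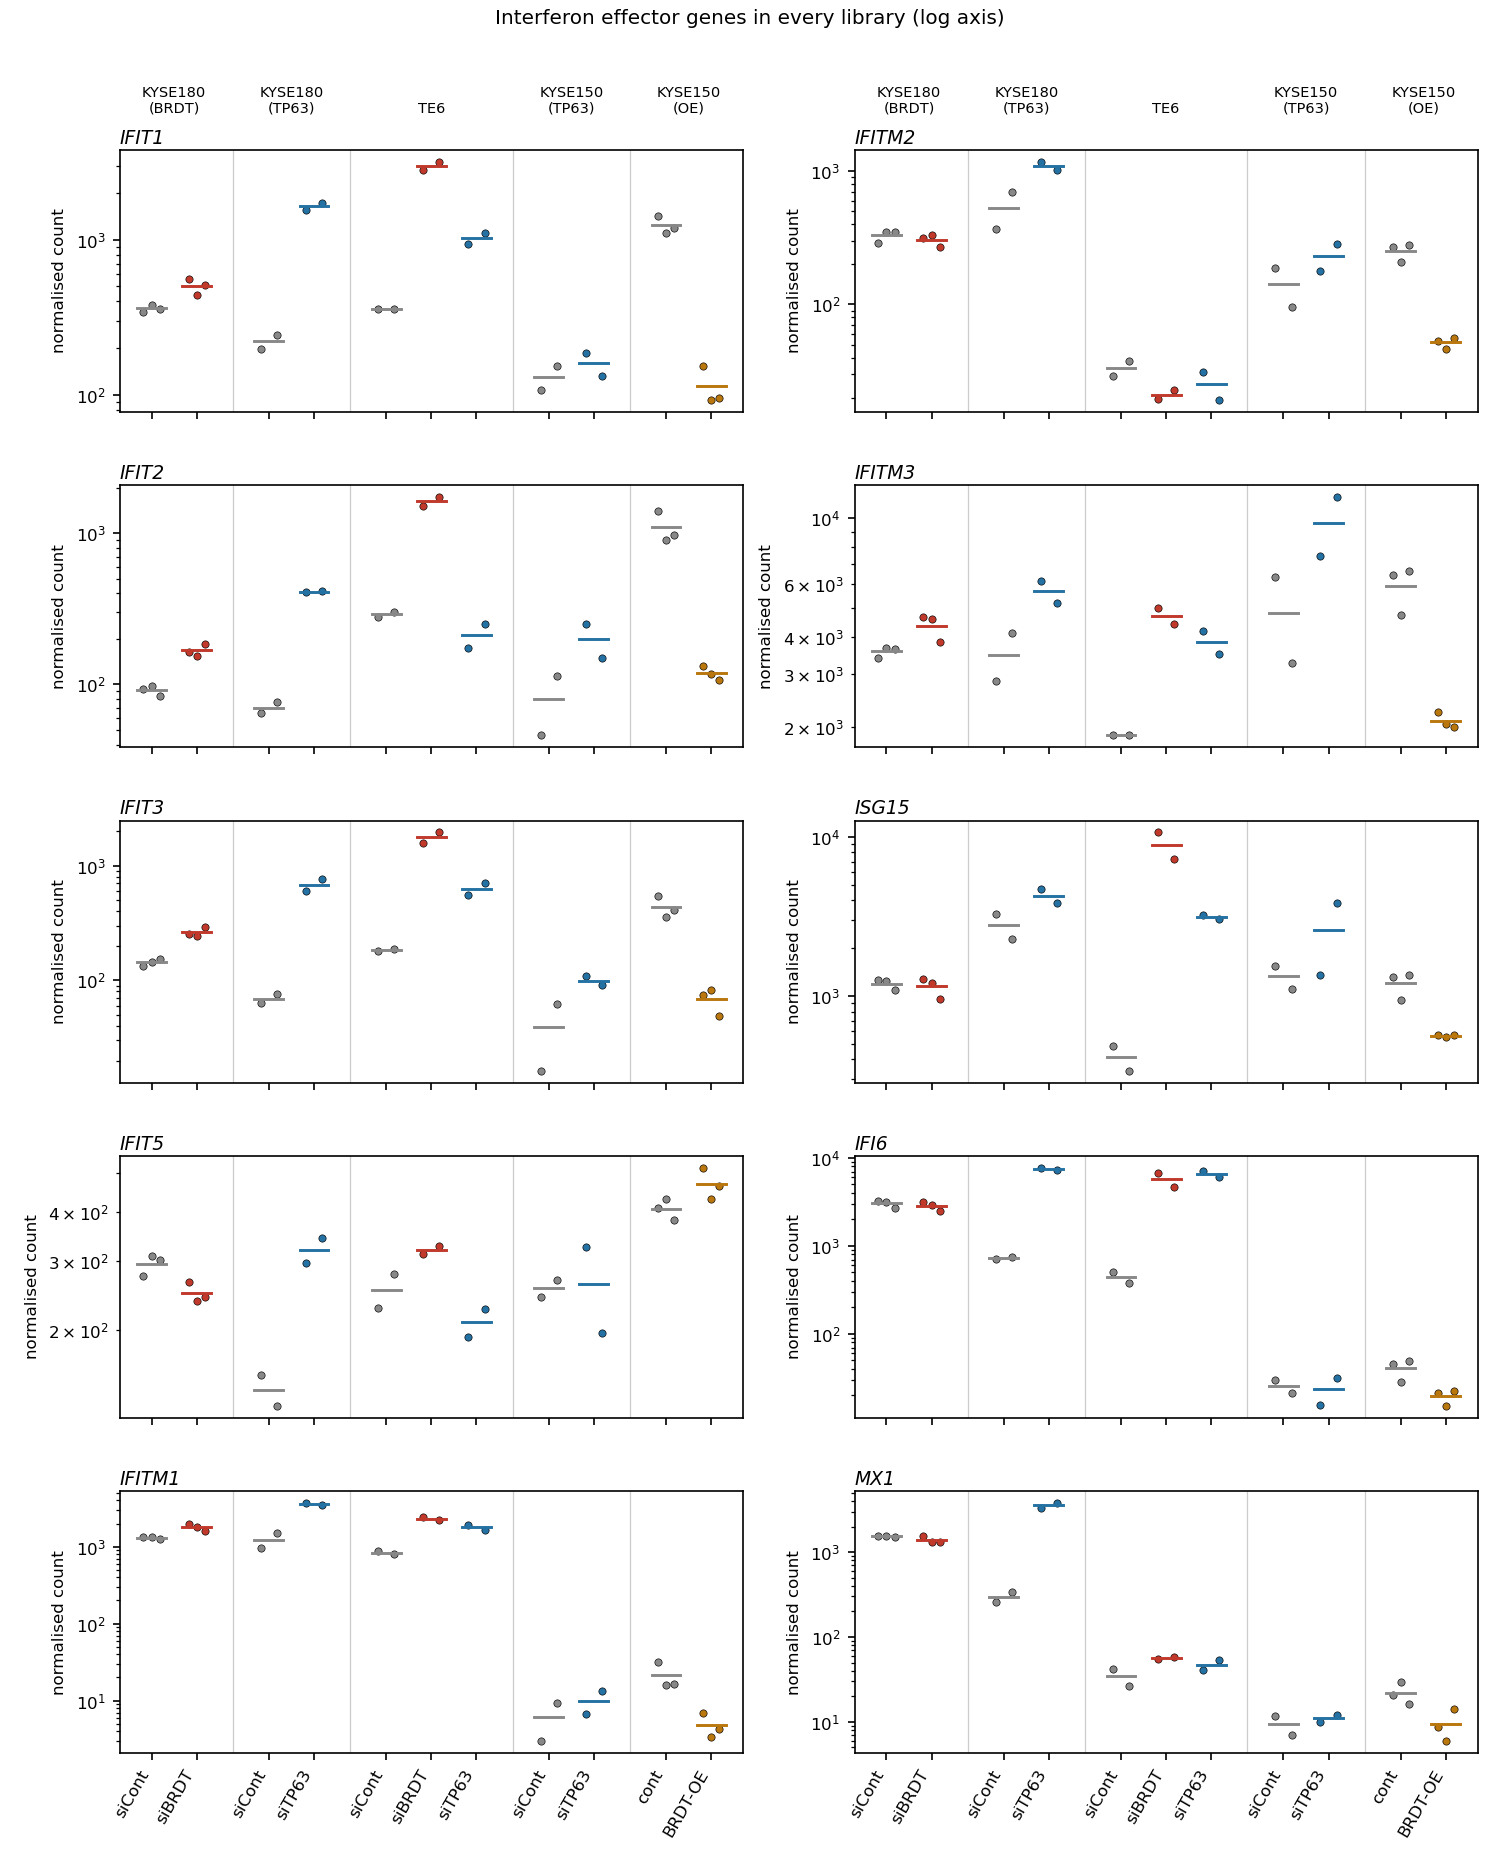
Normalised counts of the 10 genes in all 26 libraries, on log axes. Points are libraries, lines are group means, vertical lines separate the 5 separately normalised tables, and colours are grey for control, red for siBRDT, blue for siTP63 and ochre for BRDT-OE. IFIT2 in TE6 siTP63 (173 and 250.1) lies below its controls, and IFIT5 stays within 128 to 517 everywhere.

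The IFITM genes share sequence. In 50-base windows, 35.0% of IFITM1, 21.7% of IFITM2 and 30.8% of IFITM3 were identical to another transcript, mostly of the same family, so reads could have been split between them or lost and their separate values are uncertain. IFITM1 acts mainly at the cell surface. It went from 952 and 1504 to 3687 and 3474 in KYSE180 siTP63, and in TE6 from 869 and 806 to 2428 and 2199 in siBRDT and 1935 and 1672 in siTP63. All treated libraries exceeded the controls, and the log2 fold changes were 1.58 (SE 0.17, adjusted p = 1.6e-08), 1.46 (SE 0.11, adjusted p = 1.9e-06) and 1.10 (SE 0.11, adjusted p = 5.9e-06). In KYSE180 siBRDT it was 1957, 1777 and 1617 against 1319, 1325 and 1251, a log2 fold change of 0.45 (SE 0.073, adjusted p = 8.6e-05) that stayed under the fold limit. KYSE150 held little of it, 2.97 and 9.42 in siCont and 6.65 and 13.3 in siTP63 (2 to 10 reads), which was below the minimum for a test, and 31.6, 16.0 and 16.4 in cont against 6.88, 3.38 and 4.22 in BRDT-OE (-1.92, SE 0.39, adjusted p = 0.0024). The BRDT-OE values rest on 3 to 8 reads per library. IFITM1 passed the minimum only through its cont level, so its call is no support for the count of 9, which is 8 of 9 members without it. Without cont replicate 1 IFITM1 was not tested and 6 of 9 members were called. MX1 also passed the minimum only through its cont level (mean 22.2, against 9.53 in BRDT-OE). The call of MX1 is therefore no support for either count.

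IFITM3, which guards endosomes, was the most abundant of the 10 per length in the control groups. It was 2855 and 4120.1 in KYSE180 siCont and 6158 and 5209 in siTP63 (log2 fold change 0.72, SE 0.17, adjusted p = 0.00057). In TE6 it was 1873 in both siCont libraries, 4999 and 4418 in siBRDT and 4183 and 3498 in siTP63, which gave 1.33 (SE 0.11, adjusted p = 3.5e-06) and 1.03 (SE 0.11, adjusted p = 9.1e-06). The drop in BRDT-OE, from 6428, 4736 and 6655 to 2246, 2048 and 1998, was -1.49 (SE 0.12, adjusted p = 9.7e-06). Without siCont replicate 1 the KYSE180 siTP63 value fell to 0.46, under the fold limit. In KYSE180 siBRDT it was 4662, 4577 and 3834 against 3406, 3677 and 3642 (0.28, SE 0.075, adjusted p = 0.0047), under the fold limit although the groups did not overlap.

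IFITM2, found mainly in late endosomes, was scarce in TE6. It was 29.0 and 37.9 in TE6 siCont, 19.4 and 22.7 in siBRDT and 31.2 and 19.2 in siTP63, and neither change passed (adjusted p = 0.14 and 0.32). In KYSE180 siTP63 it rose from 365 and 699 to 1168 and 1011 (1.10, SE 0.19, adjusted p = 3e-05), and in BRDT-OE it fell from 270.1, 208 and 279.5 to 53.3, 46.5 and 56.2 (-2.25, SE 0.15, adjusted p = 4.2e-06).

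ISG15, the ubiquitin-like modifier, had the largest change of all members in TE6 siBRDT and the smallest in KYSE180 siTP63. In TE6 it was 488 and 340.2 in siCont, 10675 and 7269 in siBRDT and 3251 and 3066 in siTP63. Both knockdowns stood well above the controls and did not overlap with each other, and the value for siTP63 was 2.95 on the log2 scale (SE 0.18, adjusted p = 1.4e-07). In KYSE180 siTP63 it was 4681 and 3844 against 3286 and 2273 (0.63, SE 0.16, adjusted p = 0.0019), and this call was lost without siTP63 replicate 1 (adjusted p = 0.051) or siCont replicate 2 (adjusted p = 0.064). In KYSE180 siBRDT, 1286, 1216 and 965 overlapped 1268, 1238 and 1089 of siCont, with a 95% interval of the log2 fold change from -0.27 to 0.15. BRDT-OE brought it from 1321, 945 and 1365 down to 567, 551 and 569 (-1.09, SE 0.13, adjusted p = 7.4e-05).

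IFI6, the membrane protein, rose by more than 3 on the log2 scale in KYSE180 siTP63 and in both TE6 knockdowns. It went from 703 and 748 to 7721 and 7347 in KYSE180 siTP63 (log2 fold change 3.37, SE 0.14, adjusted p = 9.1e-16). In TE6 it was 501 and 381 in siCont, 6742 and 4628 in siBRDT and 7099 and 6036 in siTP63, which made siBRDT 3.67 (SE 0.17, adjusted p = 4.6e-08). KYSE180 siBRDT, with 3189, 2883 and 2497, overlapped its siCont, with 3212, 3191 and 2716, and the interval ran from -0.28 to 0.09. In KYSE150 it was close to the lower end of the measurement, 45.2, 28.3 and 49.3 in cont and 21.5, 15.2 and 22.5 in BRDT-OE (-0.996, SE 0.27, adjusted p = 0.011). Without cont replicate 1 this call was lost (adjusted p = 0.052). LINC02574 overlaps IFI6 on the same strand, and 16.4% of its 50-base windows were shared with it.

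MX1, the GTPase, rose in KYSE180 siTP63 from a moderate level and was scarce in the other lines. It went from 261 and 337 to 3312 and 3781 in KYSE180 siTP63, the largest change there (log2 fold change 3.57, SE 0.15, adjusted p = 1.1e-15). In TE6 it was 42.2 and 26.7 in siCont, 55.0 and 58.5 in siBRDT and 40.5 and 53.3 in siTP63. The siBRDT value of 0.74 (SE 0.28, adjusted p = 0.047) was called by a narrow margin and was lost without siCont replicate 2 (0.42, adjusted p = 0.37) or siBRDT replicate 2 (0.70, adjusted p = 0.062), and siTP63 overlapped the controls. KYSE180 siBRDT, with 1540.2, 1321 and 1318 against 1551, 1544 and 1512, was not called (adjusted p = 0.092). BRDT-OE had 8.60, 5.92 and 14.1 against 20.8, 29.2 and 16.4 (-1.17, SE 0.36, adjusted p = 0.02), from 7 to 31 reads per library. MX1 passed the minimum there only through its cont level. That call was lost without any 1 of cont replicates 1 and 2 and BRDT-OE replicates 1 and 2 (adjusted p = 0.058, 0.074, 0.055 and 0.078).

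KYSE150 siTP63 gave wide intervals for all members. IFIT2 was 46.0 and 114 in siCont and 252 and 150.4 in siTP63 (log2 fold change 1.41, SE 0.50, unadjusted p = 0.031 and adjusted p = 0.23 from limma), IFIT3 was 16.3 and 62.4 against 109 and 90.5 (1.60, SE 0.62, adjusted p = 0.27), and IFITM3 was 6333 and 3279 against 7466 and 11748 (1.04, SE 0.40, adjusted p = 0.26). In these 3 of 9 genes both siTP63 libraries lay above both controls, as they did in 24.3% of all genes tested. ISG15 was 1544 and 1115 in siCont and 1364 and 3866 in siTP63, so that 1 siTP63 library stood alone, and IFI6, at 29.7 and 21.2 against 15.8 and 31.9, overlapped. Without siCont replicate 2, IFIT2 and IFIT3 were called (2.06 and 2.53, adjusted p = 0.0046 and 0.0012), and without siTP63 replicate 1 ISG15 was called (1.56, adjusted p = 0.02). Even TP63 itself, at 170.4 and 114 against 695 and 729, had an adjusted p of 0.082 in this fit.

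The TE6 knockdowns share their control libraries, so siBRDT and siTP63 were compared with each other directly. Of the 10 genes 5 were called, all higher in siBRDT, where 28.4% of all 13333 genes were called in either direction. The differences on the log2 scale were 2.96 for IFIT2 (SE 0.16, adjusted p = 1e-07), 1.56 for IFIT1 (SE 0.12, adjusted p = 1.4e-06), 1.49 for IFIT3 (SE 0.14, adjusted p = 8.5e-06), 1.48 for ISG15 (SE 0.18, adjusted p = 4.7e-05) and 0.61 for IFIT5 (SE 0.15, adjusted p = 0.0071). The IFIT5 call was lost without siTP63 replicate 1 (0.49, adjusted p = 0.096). IFITM1 (0.36, adjusted p = 0.02) and IFITM3 (0.30, adjusted p = 0.044) were under the fold limit. IFI6 did not differ beyond the error, with an interval from -0.59 to 0.13, and neither did MX1 (-0.32 to 0.89) nor IFITM2 (-0.94 to 0.52).

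The same agent was then compared between lines, as a contrast of fold changes that were each taken within a table. The siBRDT response was larger in TE6 than in KYSE180 for 9 of the 10 genes, where 37.2% of 13761 genes differed in either direction (adjusted p under 0.05, no fold limit). The difference was 4.49 on the log2 scale for ISG15 (SE 0.24, adjusted p = 3.1e-08) and 3.77 for IFI6 (SE 0.22, adjusted p = 4.6e-08), and IFITM2 did not pass (-0.52, adjusted p = 0.091). For siTP63 the order of the lines depended on the gene. Of 8 genes that differed between TE6 and KYSE180 (55.5% of 13926 genes differed), 6 responded less in TE6, led by MX1 (-3.12, SE 0.30, adjusted p = 3.5e-06) and IFIT2 (-3.02, SE 0.24, adjusted p = 1.8e-06), whereas ISG15 responded more in TE6 (2.32, SE 0.25, adjusted p = 7.3e-06), as did IFI6 (0.53, SE 0.18, adjusted p = 0.022). Against KYSE150, IFI6 responded more in TE6 (4.05, SE 0.48, adjusted p = 0.017, where 2.37% of 13435 genes differed). In KYSE180, IFI6 (3.53), MX1 (3.35) and IFIT1 (2.61) responded more than in KYSE150 (adjusted p = 0.027, 0.023 and 0.028, where 2.05% of 13689 genes differed). None of these KYSE150 contrasts kept an adjusted p under 0.05 with a replicate block (adjusted p = 0.21 for the TE6 contrast and 0.25 for the others). That block called 0 of all genes in either contrast, so this loss is not particular to the members. The IFI6 contrast with TE6 was also lost without any 1 of the 4 TE6 libraries (adjusted p = 0.11 to 0.13), and the contrasts with KYSE180 without any 1 of the 4 KYSE180 libraries (adjusted p = 0.087 to 0.22).

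The other genes of the pathway were counted in lists chosen by function, to be read against the shares of all genes called up and down, which were 23.6% and 25.7% in KYSE180 siTP63, 15.6% and 18.1% in TE6 siBRDT, 18.3% and 20.6% in TE6 siTP63, 14.5% and 15.8% in KYSE180 siBRDT and 10.5% and 16% in BRDT-OE. ISG15 is attached by UBA7 (the activating enzyme), UBE2L6 (the conjugating enzyme) and HERC5 (the main ligase) and removed by USP18, and 7 of the 8 genes of the conjugation list were tested in most comparisons. In KYSE180 siTP63, 6 of 7 rose and none fell (median log2 fold change 1.06), led by UBA7, from 15.7 and 20.5 to 106 and 120.4 (2.58, adjusted p = 1.6e-08). In TE6 siTP63, 5 rose and 1 fell, again led by UBA7 (1.54, adjusted p = 0.0017), while TE6 siBRDT raised only 2, led by HERC5, from 417 and 438 to 1870 and 2160 (2.23, adjusted p = 1.6e-07), and lowered 1. The gene that fell in both was ARIH1, a ubiquitin ligase (-0.73 and -0.92, adjusted p = 0.0002 and 2.5e-05). In KYSE180 siBRDT none rose and UBA7 fell (-1.67, adjusted p = 9.6e-05), and in BRDT-OE 3 of 7 fell and none rose, led by HERC5 (-3.08, adjusted p = 1.5e-05).

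Among 13 OAS genes and RNA sensors, which make or read the signals of foreign RNA, 11 of 13 tested rose and none fell in KYSE180 siTP63, led by OAS2 (4.18, adjusted p = 3.7e-12). In TE6, 6 of 12 rose and 1 fell with siBRDT and 5 rose and 1 fell with siTP63. Different genes led the list. OASL went from 310.3 and 326 to 2343 and 2801 in siBRDT (3.01, adjusted p = 1.5e-08), and OAS1 from 141 and 164 to 744 and 852 in siTP63 (2.38, adjusted p = 7.5e-08). BRDT-OE lowered 5 of 11 and raised none, led by OASL (-2.81, adjusted p = 1e-05), and KYSE180 siBRDT raised none of 13 and lowered 2, near the share of all genes that fell. Of 15 signalling genes, from receptors to transcription factors, 4 of 14 tested rose and 2 fell in KYSE180 siTP63, with IRF9, a DNA-binding factor of the pathway, rising most (2.88, adjusted p = 1.7e-12). In TE6, siBRDT raised 5 and lowered 2 and siTP63 raised 6 and lowered 1, both led by IRF7, a factor induced by interferon (2.25 and 2.16, adjusted p = 8e-07 and 2.8e-07). BRDT-OE lowered 4 of 14 and raised 1, with IRF9 falling most (-1.50, adjusted p = 2.1e-05), and KYSE180 siBRDT raised none and lowered 3 of 14.

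A list of 26 other interferon-induced effectors was counted last. In KYSE180 siTP63, 21 of 25 tested rose and none fell (median 1.65). The largest rise was that of XAF1, which is linked to apoptosis, from 3.15 and 8.21 to 399 and 472 (6.14, adjusted p = 3.4e-14). XAF1 passed the minimum for a test only through its siTP63 level. Its call and p-value are therefore no support for the count of 21. TE6 siBRDT raised 18 of 22 and lowered none (median 1.16, led by IFI27, 2.26, adjusted p = 2.6e-07), and TE6 siTP63 raised 14 and lowered 1 (median 1.12, led by TRIM22, 3.87, adjusted p = 8e-06). BRDT-OE lowered 11 of 18 and raised 1 (median -0.62), led by RSAD2, the antiviral enzyme viperin (-3.03, adjusted p = 3.4e-05). KYSE180 siBRDT raised 3 and lowered 3 of 23 (median -0.13), near the 14.5% and 15.8% of all genes. In KYSE150 siTP63 no gene of any list was called.

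**Figure D4:**
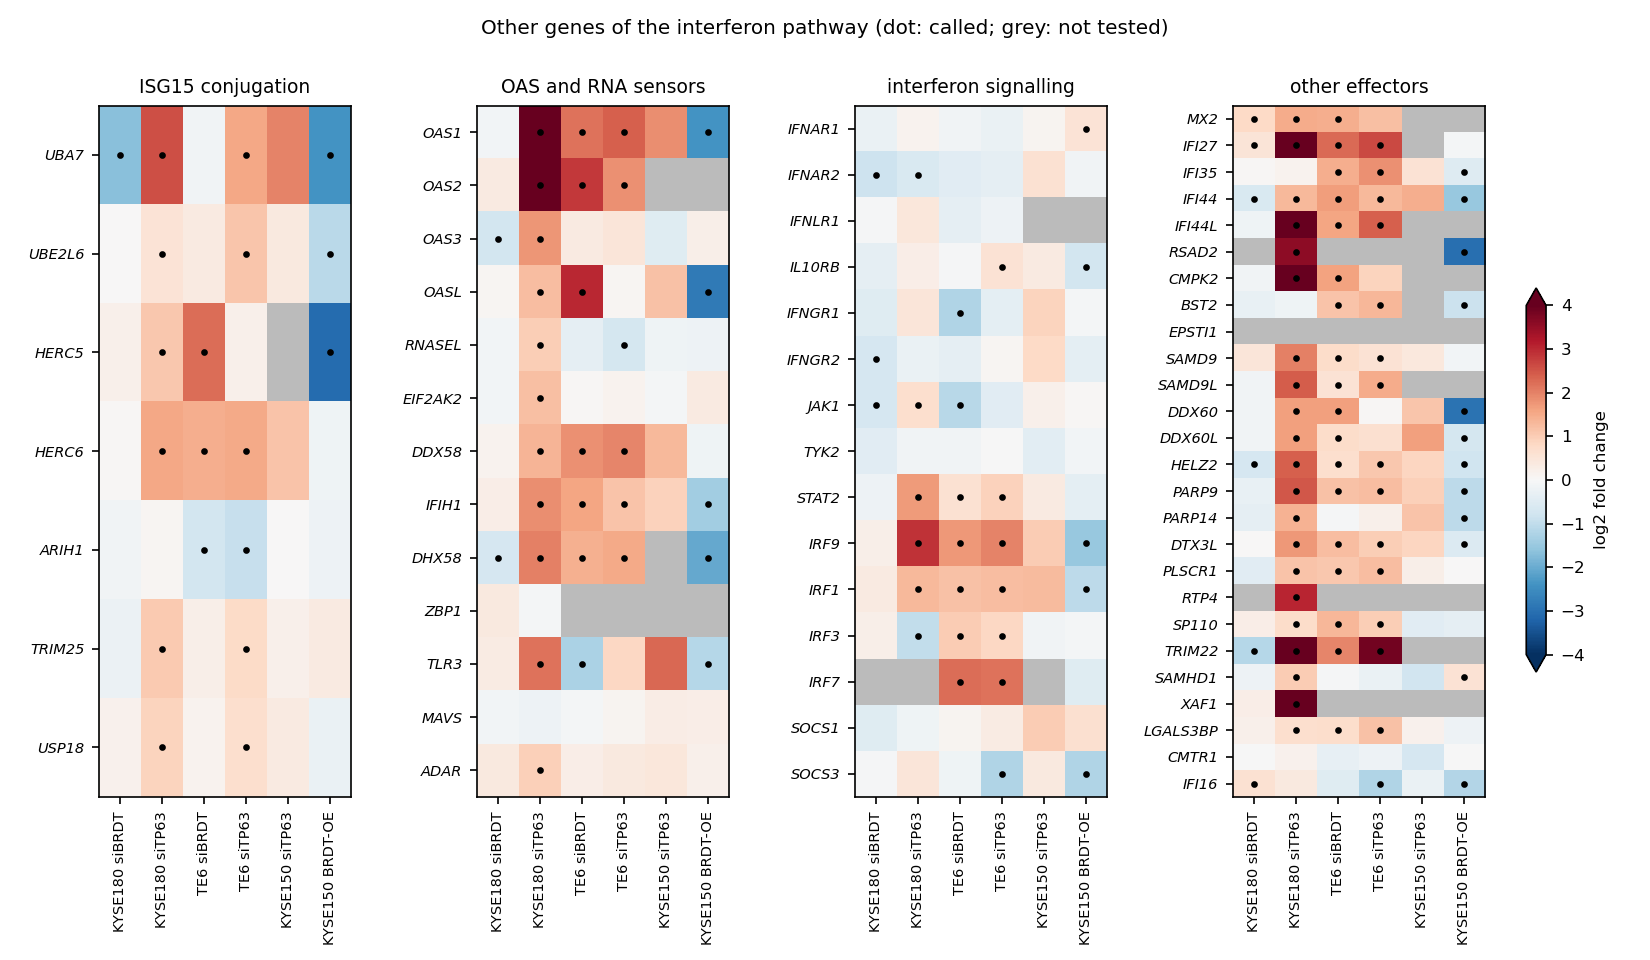
Log2 fold change of 4 lists of interferon pathway genes (rows) in the 6 comparisons (columns). Dots mark called genes, grey cells were not tested, and the colour scale ends at 4 in size. KYSE180 siTP63 is mostly red, with 21 of 25 tested genes of the last list called up. That count includes XAF1, which passed the minimum for a test only through its siTP63 level. BRDT-OE is mostly blue in the last list, with 11 of 18 called down.

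Interferons themselves were barely detected. Of 11 ligand genes, at most 1 reached the minimum for a test in any comparison, and that gene was IFNE in each case, an interferon of epithelia that was called in KYSE180 siTP63 (1.03, adjusted p = 0.0073). IFNB1 had at most 2 reads in any library. IFNL1, a type III interferon that was singled out after its values were seen, had 17 and 10 reads in the TE6 siBRDT libraries, 2 and 3 in siCont and 8 and 1 in siTP63, and it had at most 3 in every library of the other lines. At this depth a ligand at 0 to 3 reads cannot be told from absence.

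To ask which genes were most like the 10, each library was expressed as its difference from the mean of its own controls on the log2 scale, and the mean profile of the 9 members that passed the minimum in all tables was correlated with all other genes that did so (11337 genes, 26 libraries). The highest Pearson correlations were those of IFIH1 (r = 0.969), IRF9 (0.960), OAS1 (0.941), RARRES3 (0.936) and C10orf10 (0.935). Within the profile, IFIT1 (0.981) and IFIT3 (0.973) were nearest to the mean, MX1 was at 0.803, ISG15 at 0.764 and IFITM2 at 0.650, and IFIT5 stood apart at 0.368. Each member is itself part of that mean, which raises its r, so these values cannot be set beside those of the other genes. Between pairs of members, r was 0.964 for IFIT1 with IFIT3 and 0.852 for ISG15 with IFI6, but 0.159 for ISG15 with IFITM2 and 0.0061 for IFIT5 with IFITM3. The points share libraries, controls and treatments, so these values describe likeness and were not tested.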

How the data were processed

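RNA had been extracted with QIAzol and made into libraries with the Illumina TruSeq RNA kit V2, which does not mark strand. Per the submitters' processing notes and the study's methods, reads were mapped to hg38 with STAR 2.6.0, counted per gene with HTSeq 0.11.2 and analysed with DESeq2 1.24.0, and the annotation and counting options are not given in the sources used here. The deposited values are a normalised signal, namely gene counts that the authors divided by a size factor per library, separately in each of 5 tables. Whole reads were recovered from the step of each library (100% of values within 0.01 of a whole number), which gave 7582089 to 19372441 reads per library.

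Groups were taken from the sample titles. limma 3.58.1 (R 4.3.3, lmFit and eBayes with trend) was run on log2(value + 1), which understates changes of low genes, over genes with a mean of at least 10, per table and without a replicate block. The 3 TE6 groups shared 1 fit. IFITM1 was left out by the filter in KYSE150 siTP63. Contrasts between lines used the libraries of both tables. Called means an adjusted p under 0.05 and 0.5 on the log2 scale, the thresholds of the study, and contrasts between lines had no fold limit. The members, gene lists and tests were chosen with earlier results of these data known. Named genes were the members, BRDT and TP63, and, for each list in each comparison, the top called gene in either direction. As alternatives, fits were repeated with a pseudocount of 0.1, without the filter, with rescaling to equal upper quartiles, no fold limit, 2 TE6 groups only, edgeR 4.0.16 (quasi-likelihood) and DESeq2 1.42.0 on the recovered reads, a replicate block and leaving out each library. A crossed block was added after seeing the data. Fits were tested on simulated data. Promoters were from RefSeq, coordinates from GENCODE 44, and figures were drawn with matplotlib 3.10.9. The tables hold no columns of the authors' own comparisons. Of the signalling list, 1 gene is not reported here and was left out of its counts.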

Additional observations from a re-analysis of the deposited data

Results flagged for a closer look

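The response of a gene to the same siRNA differed between cell lines for the values that follow, each tested as a limma contrast of 2 fold changes (log2 scale, adjusted p under 0.05). The siBRDT response in TE6 exceeded that in KYSE180 by 4.49 for ISG15, 3.77 for IFI6, 2.59 for IFIT1, 2.38 for IFIT3, 1.61 for IFIT2, 1.05 for IFITM3, 1.01 for IFITM1, 0.88 for MX1 and 0.59 for IFIT5. The IFIT5 difference was lost without TE6 siCont replicate 1 (0.44, adjusted p = 0.077).

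The siTP63 response in TE6 minus that in KYSE180 was -3.12 for MX1, -3.02 for IFIT2, -1.53 for IFIT3, -1.52 for IFITM2, -1.44 for IFIT5 and -1.39 for IFIT1, and it was 2.32 for ISG15 and 0.53 for IFI6. The IFI6 difference was lost with edgeR (0.40, adjusted p = 0.055), without the filter (adjusted p = 0.061) and without KYSE180 siTP63 replicate 2, TE6 siCont replicate 2 or TE6 siTP63 replicate 1 (adjusted p = 0.08, 0.14 and 0.12). MX1 and IFITM2 were low in TE6 (19.2 to 58.5 normalised counts).

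Contrasts with KYSE150 were 4.05 for IFI6 (TE6 minus KYSE150) and 3.53 for IFI6, 3.35 for MX1 and 2.61 for IFIT1 (KYSE180 minus KYSE150). IFI6 and MX1 had 6 to 24 reads per KYSE150 siRNA library. No group had the 4 to 10 libraries needed to test for a single outlying library.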

How the results depend on the processing

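Of 1220 values recomputed for single genes, 1134 kept their direction and side of the threshold, 43 lost and 31 gained a call and 12 changed sign. Apart from the settings named here, the number of members called stayed within 1.5 times of the reported one. Without the fold limit, KYSE180 siBRDT called 6 of 10 members (5 up and 1 down) in place of 2, near the 58.4% of all genes called that way. For KYSE180 minus KYSE150 siTP63, 1 member was called without the filter in place of 3. Leaving out 1 library at a time gave 0 to 2 called members in KYSE150 siTP63, 0 to 2 in TE6 minus KYSE150 and 0 to 4 in KYSE180 minus KYSE150, and 6 to 9 in BRDT-OE. In both contrasts with KYSE150 the number of all genes called also varied widely between these fits, so those ranges are not particular to the members. An arm left with 1 library is assumed to vary like the others.

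All values that changed sign were small and uncalled. Without siBRDT replicate 3, ISG15 and IFI6 in KYSE180 siBRDT were 0.065 and 0.00067 (ranges -0.14 to 0.065 and -0.18 to 0.00067). In KYSE150 siTP63, IFIT5 was 0.041 with DESeq2, 0.061 with edgeR and 0.026 after rescaling, and leaving out libraries gave -0.37 to 0.35 for IFIT5, -0.64 to 0.34 for IFI6 and -0.11 to 0.35 for MX1. For TE6 siBRDT against siTP63 the ranges were -0.55 to 0.12 for IFITM2 and -0.50 to 0.043 for IFI6, which was called without siBRDT replicate 1. The cause was not tested. MX1 in TE6 siBRDT was lost with 2 groups only, DESeq2, no filter and the block (adjusted p = 0.063, 0.16, 0.11 and 0.058).

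Same-numbered libraries deviated together weakly or not at all, except in KYSE150 siTP63, where they deviated strongly in opposite directions. Correlations of same-numbered deviations were 0.15, 0.0047 and 0.18 in KYSE180 siBRDT, 0.047 in KYSE180 siTP63, -0.095 and 0.011 in TE6, 0.015, 0.098 and 0.037 in BRDT-OE and -0.70 in KYSE150 siTP63. A replicate block left 0 members called in both contrasts with KYSE150, where it called 0 of all genes, and 7 members in TE6 siBRDT. In KYSE150 siTP63 the block called 89 genes up and 48 down but 0 members. A crossed pairing, chosen after seeing the data, called 1626 up and 1774 down there, 27.6% of 12335 genes. Among them were 5 members, all up, namely IFIT2, IFIT3, IFITM2, IFITM3 and ISG15. That pairing was taken from these same data, so its calls are no support. Without the filter 27 genes rose and 18 fell in KYSE150 siTP63.

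Rescaling to equal upper quartiles moved the median of all genes by 0.10 in TE6 siBRDT and in the siBRDT contrast between lines, and the share of calls that were down from 53.8% to 41.4% and from 52.8% to 40.2%. Members called stayed at 8 and 9. In KYSE180 minus KYSE150 that share went from 46.4% to 36.1% without the filter. Low reads limit MX1, IFI6 and IFITM1 in KYSE150 and MX1 and IFITM2 in TE6.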

Other observations

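Control libraries of the same line differed in these genes between experiments. In KYSE180, siCont of the BRDT experiment held 337 RPKM of IFI6 (304 to 355) and 49.8 of MX1 (49.5 to 50.2), and siCont of the TP63 experiment held 52.8 (50.03 to 55.6) and 6.38 (5.43 to 7.32), while ISG15 ran the other way with 169 (155 to 179) and 257 (215 to 298). In KYSE150, IFIT1 was at 1.92 RPKM (1.45 to 2.39) in siCont and at 19.3 (17.5 to 22.2) in cont of the overexpression experiment, and IFIT2 was at 1.53 (0.790 to 2.28) and 21.6 (18.0 to 28.0). BRDT-OE, with 1.63 RPKM of IFIT1 (1.31 to 2.21) and 2.15 of IFIT2 (1.94 to 2.42), was nearer to the siCont libraries than to its own controls. IFIT3 did likewise, at 1.08 RPKM in siCont, 12.3 in cont and 1.76 in BRDT-OE. IFITM3 (483 and 650.4) and ISG15 (130 and 127) did not show such a gap between the KYSE150 control groups. In BRDT-OE these 2 genes were below both control groups, at 211 and 54.3 RPKM. IFITM2 was also below both, at 3.18 RPKM against 8.62 in siCont and 16.8 in cont. These values are reads per length and library total and do not use the authors' size factors. Both KYSE180 groups were transfected with siRNA. The KYSE150 control groups differed in experiment, in mode of transfection and in what was delivered (siRNA or a control vector), which cannot be told apart. No test was made.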
